A study of Mus musculus with 15 samples.

Results

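The regions described here are p53 ChIP-seq regions that lie at an end of a noncoding gene and away from the ends of coding genes. A region belonged to the set when its midpoint was within 2 kb of an end of a RefSeq gene of any class other than protein-coding and more than 2 kb from the ends of all protein-coding genes. Of 4137 distinct regions in the liver, spleen and thymus lists, 252 met this rule (6.09%). Another 1889 lay at ends of coding genes and 1996 at no gene end. No signal value entered the choice.

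In ChIP-seq, DNA bound by a protein, here p53, is recovered with an antibody and sequenced. The study labels 15 libraries from wild-type mice, 5 for each of liver, spleen and thymus: 2 untreated, 2 irradiated with X-rays (2 Gy, tissue taken at 3 h) and 1 input of unprecipitated chromatin. The sources used here give neither strain, age and sex nor the antibody. The authors deposited 1 list of regions per organ. Each list is attached to all 5 libraries of its organ and is named for irradiation and IgG, so untreated and irradiated mice could not be compared. With 1 list per organ there is no replicate spread and no test between organs. Intervals in brackets are exact Clopper-Pearson 95% intervals and cover counting error only. Read depth is unknown. Because the lists differ in length, with 3872 regions in liver, 2604 in spleen and 2405 in thymus, an absence from a list cannot be told apart from a signal under that list's limit. Region lists carry no expression values, so the organ labels were not checked against marker RNAs.

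p53, the product of Trp53, is a transcription factor that is stabilised after DNA damage and binds a response element made of a pair of half-sites. Besides coding genes such as Cdkn1a, it controls noncoding genes: long noncoding RNAs (lncRNAs), which can regulate genes nearby, and microRNAs (miRNAs), which pair with messenger RNAs through a short seed and lower their output. Pseudogenes are decayed copies of genes, and most lack a promoter of their own. Transfer RNA (tRNA) genes are transcribed by RNA polymerase III, and many sit in clusters of near-identical copies.

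The promoter sequences of 3 lncRNA genes are shown first because these were the noncoding promoter windows under a region that held a p53 response element. RefSeq promoter windows (GRCm38.p6, from 250 bases before to 50 bases after the annotated start) were searched on both strands for the p53 response element with at most 1 mismatch over the pair of half-sites and a spacer of 0 to 13 bases. Each line gives the piece of the window that the region covered, 5′ to 3′ on the strand of the gene, with the element in capitals. The piece of Gm51651 is chr1:155056274-155056573 on the plus strand, that of D730003K21Rik chr9:116327101-116327372 on the plus strand, and that of Gm15987 chr6:128975001-128975250 on the minus strand.
Gm51651: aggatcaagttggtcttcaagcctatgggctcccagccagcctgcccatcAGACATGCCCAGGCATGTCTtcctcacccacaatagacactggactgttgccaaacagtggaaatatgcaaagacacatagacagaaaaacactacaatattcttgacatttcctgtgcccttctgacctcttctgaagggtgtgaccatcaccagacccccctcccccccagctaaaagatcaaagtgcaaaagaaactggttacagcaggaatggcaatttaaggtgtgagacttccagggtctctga
D730003K21Rik: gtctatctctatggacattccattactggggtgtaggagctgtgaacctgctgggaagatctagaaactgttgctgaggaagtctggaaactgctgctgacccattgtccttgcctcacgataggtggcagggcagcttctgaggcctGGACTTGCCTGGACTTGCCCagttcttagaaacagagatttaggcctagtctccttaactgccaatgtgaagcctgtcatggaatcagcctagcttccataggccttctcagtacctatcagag
Gm15987: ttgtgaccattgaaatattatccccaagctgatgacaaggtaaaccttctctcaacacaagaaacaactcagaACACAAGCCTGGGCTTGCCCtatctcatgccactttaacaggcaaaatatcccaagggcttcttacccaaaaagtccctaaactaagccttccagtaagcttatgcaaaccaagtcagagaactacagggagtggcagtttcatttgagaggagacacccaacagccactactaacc
The elements of Gm51651 and D730003K21Rik had 0 mismatches and that of Gm15987 had 1, and none had a spacer. Gm51651 and D730003K21Rik carried a region in all 3 lists, Gm15987 in liver and spleen.

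An element was found in 3 of the 39 noncoding promoter windows that these regions overlapped (7.69%, 1.62 to 20.9%). Over all 11588 noncoding promoter windows the share was 1.46%, and over all 32851 windows of any gene 1.09%. Most of those windows have no region. Noncoding windows under regions outside the set held no element: 0 of 89 for liver alone and 0 of 17 for all 3 lists. The counts were also 0 of 17 for liver and spleen and 0 of 17 for liver and thymus. Windows of any gene under regions outside the set did hold elements: 9 of 236 for all 3 lists (3.81%). There were 3 of 243 for liver and spleen, 1 of 172 for liver and thymus and 3 of 1014 for liver alone. The share in the set thus rests on 3 matches. By list, the element was found in 2 of 10 noncoding windows under regions of all 3 lists, 1 of 13 under regions of liver and spleen, and 0 of 13 under regions of liver alone (0%, up to 24.7%). The half-site core CATG alone was common: 61.5% of the overlapped noncoding windows and 70.0% of all noncoding windows held it. These matches describe letters in a window and are not evidence of binding at that base.

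Pieces of 3 promoters with a region in the liver list alone follow, to show how their base composition varies. Snhg3 is the host gene of small nucleolar RNAs, A630066F11Rik is an lncRNA gene inside Pcmt1, and Gm40561 is an lncRNA gene whose region lay 2520.5 bp from an end of Serpina3n, which encodes a serine protease inhibitor. Snhg15, a host gene whose region was in all 3 lists, is shown beside them. Capitals are not used, since no element was found. The pieces are chr4:132353637-132353750 on the minus strand (Snhg3), chr10:7663301-7663420 on the plus strand (A630066F11Rik), chr12:104404119-104404250 on the minus strand (Gm40561) and chr11:6528711-6528850 on the minus strand (Snhg15).
Snhg3: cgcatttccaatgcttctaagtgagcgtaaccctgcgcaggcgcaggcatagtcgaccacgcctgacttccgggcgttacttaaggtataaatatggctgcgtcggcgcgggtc
A630066F11Rik: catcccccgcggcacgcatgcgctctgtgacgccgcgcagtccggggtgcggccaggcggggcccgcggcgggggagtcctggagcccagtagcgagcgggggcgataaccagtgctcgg
Gm40561: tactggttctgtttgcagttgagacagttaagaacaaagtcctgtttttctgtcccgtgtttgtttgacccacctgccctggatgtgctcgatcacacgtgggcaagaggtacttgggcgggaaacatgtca
Snhg15: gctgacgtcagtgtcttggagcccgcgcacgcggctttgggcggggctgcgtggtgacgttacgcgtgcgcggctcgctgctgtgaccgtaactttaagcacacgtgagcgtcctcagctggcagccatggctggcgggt
The share of G and C was 57.0% in the Snhg3 piece, 76.7% in A630066F11Rik, 49.2% in Gm40561 and 66.4% in Snhg15, against 48.7% in the Gm51651 piece above. These single promoters did not sort by list: Gm40561, in liver alone, was close to Gm51651, in all 3 lists, and Snhg15, in all 3 lists, was richer in G and C than Snhg3. They are not typical, however. Gm40561 and Snhg3 had the lowest shares among the pieces in liver alone, and Snhg15 one of the highest among those in all 3 lists.

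Over whole promoter windows, the median share of G and C was 67.3% in the 13 noncoding windows under regions of liver alone and 69.7% in the 13 under regions of liver and spleen. It was 51.0% in the 10 windows under regions of all 3 lists, close to the 48.3% of all noncoding windows. The median number of CpG dinucleotides was 30, 38 and 3 in the same order. Windows of any gene under regions outside the set did not show that split. Their medians were 66.7% for liver alone and 65.0% for all 3 lists. Few of those other windows were noncoding, 89 of 1014 for liver alone and 17 of 236 for all 3 lists, and these were not measured apart. Base composition thus moved with list membership among the noncoding windows of the set, and its part in the lists was not tested.

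Long noncoding RNA genes made up most of the set. They were nearest to 171 regions, pseudogenes to 58, miRNA genes to 3 and other kinds to 20, of which tRNA genes had 8, small nuclear RNA genes 4, genes of the class misc_RNA 3 and small nucleolar RNA genes 2. Of all annotated genes of each kind, a region lay at an end of 179 of 12727 lncRNA genes (1.41%), 58 of 10609 pseudogenes (0.547%), 5 of 1228 miRNA genes (0.407%) and 16 of 408 tRNA genes (3.92%). The tRNA genes shared regions: 8 regions were nearest to a tRNA gene, and the one at n-TStga1 was in reach of 5 of these genes. In all, 277 noncoding genes had such a region. Ends of more than one noncoding gene were in reach of 23 regions, and 72 regions lay inside a coding gene although far from its ends. Most of the genes are poorly characterised: 219 regions were nearest to a gene with a provisional symbol (Gm, LOC or Rik). The regions had a median width of 250 bp, from 50 to 2350 bp.

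Across organs, the set's share in the full liver list was near that of all regions. With the 2 kb window and all gene models, its shares in the spleen and thymus lists were above the background. The liver list held 233 of 252 (92.5%, 88.5 to 95.4%), against 93.6% of all distinct regions. The spleen list held 198 (78.6%, 73.0 to 83.5%), against 62.9%, and the thymus list 181 (71.8%, 65.8 to 77.3%), against 58.1%. All 3 lists shared 158 (62.7%, 56.4 to 68.7%), against 46.7%. The liver list alone held 44 (17.5%, 13 to 22.7%), against 30.3%, a share that was 33.3% of 39 regions when genes with provisional symbols were left out. For those 39 the spleen share was 56.4%, below the background, the thymus share 61.5% and the share in all 3 lists 48.7%. Another 25 (9.92%) were in liver and spleen only, against 10.6%, and 19 (7.54%) were absent from liver, against 6.41%. A 1 kb window, applied to noncoding and coding ends alike, took in 196 regions. These included regions outside the set that lay 1 to 2 kb from a coding end. In that changed set the excess was small: 67.9% were in the spleen list, 59.7% in the thymus list and 48.5% in all 3 lists. The last 2 values are near the 58.1% and 46.7% of all regions.

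Regions at noncoding ends stood between the other classes of region. At coding gene ends 54.9% were in liver alone and 19.1% in all 3 lists. At no gene end these shares were 8.72% and 70.7%. With each list cut to its 2405 best-scored regions, 45.9% of the noncoding-end regions were in all 3 lists against 32.6% of all regions, and 64.5% were in the liver list against 66.8%.

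The kinds differed in these shares. Pseudogene ends were the most widely shared: 49 of 58 regions were in all 3 lists (84.5%, 72.6 to 92.7%) and 4 in liver alone (6.90%). At lncRNA ends 102 of 171 were in all 3 lists (59.6%, 51.9 to 67.1%) and 32 in liver alone (18.7%, 13.2 to 25.4%), with 21 more in liver and spleen only. Among the 20 regions at other kinds, 5 were in all 3 lists (25%, 8.66 to 49.1%) and 8 in liver alone (40.0%, 19.1 to 63.9%). The 3 miRNA regions were too few for a share: 2 were in all 3 lists and 1 in thymus alone. The intervals of the pseudogene and lncRNA shares in all 3 lists do not overlap, and no test of their difference was made, since neighbouring regions and near-copies are not independent.

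**Figure D1:**
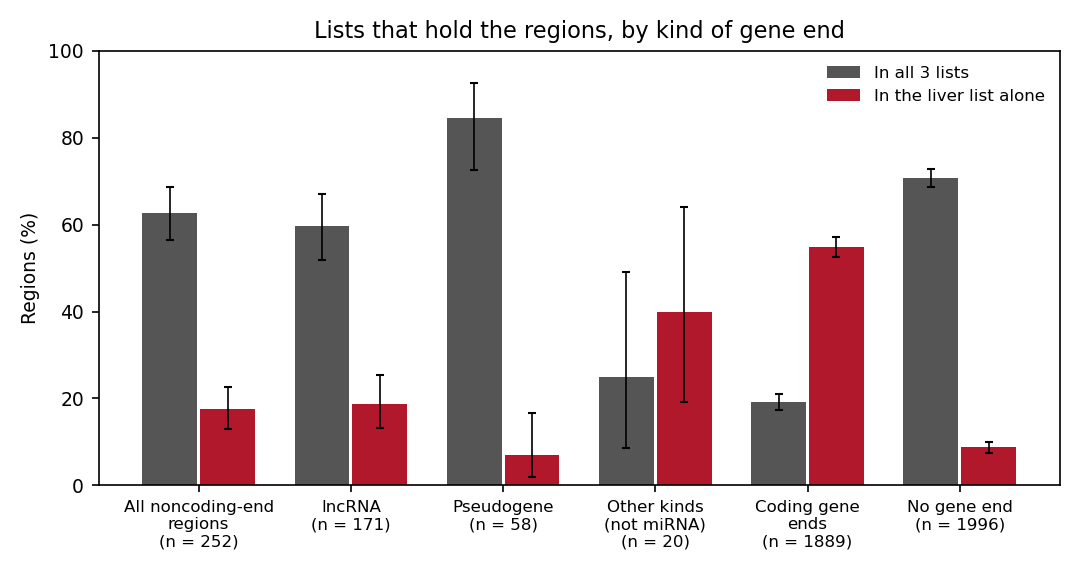
Share of regions (%) in all 3 lists (grey) and in the liver list alone (red) for regions at noncoding gene ends, for 3 of their kinds, and for regions at coding gene ends and at no gene end. Bars start at 0 and error bars are exact 95% intervals. The grey bar is highest at pseudogenes (84.5%) and the red bar at coding gene ends (54.9%). The 3 miRNA regions are not drawn.

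Distance to the gene end separated the lists. Regions in liver alone lay at a median of 185.5 bp from the nearest noncoding end, and 23 of 44 (52.3%, 36.7 to 67.5%) were within 250 bp, a bin that is 12.5% of the window. Regions in liver and spleen were similar, with 13 of 25 within 250 bp (52.0%, 31.3 to 72.2%) and a median of 245.5 bp. Regions in all 3 lists lay at a median of 869 bp, and 21 of 158 were within 250 bp (13.3%, 8.42 to 19.6%), near the share of the window that the bin takes up. Of the 19 regions absent from liver, 2 were within 250 bp. The same order held at coding gene ends, where 77.7% of regions in liver alone and 48.2% of those in all 3 lists were within 250 bp. Pseudogene regions were rarely close, with 5 of 58 within 250 bp and 20 beyond 1500 bp.

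The side of the gene differed too. Strand was known for 136 regions, 134 of them at lncRNA genes. In liver alone 25 of 27 were at the start of the gene and 2 at its finish (92.6% at the start, 75.7 to 99.1%). Some of the 25, such as those at Gm40564 and 9430083A17Rik, also overlapped a coding promoter window. The sides were not recounted without them. In liver and spleen 16 of 20 were at the start (80.0%, 56.3 to 94.3%), and in liver and thymus 4 of 4. In all 3 lists 32 of 75 were at the start (42.7%, 31.3 to 54.6%), so these regions were split over both ends. Within 250 bp, the count was 12 starts and 0 finishes in liver alone, against 6 starts and 7 finishes in all 3 lists.

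**Figure D2:**
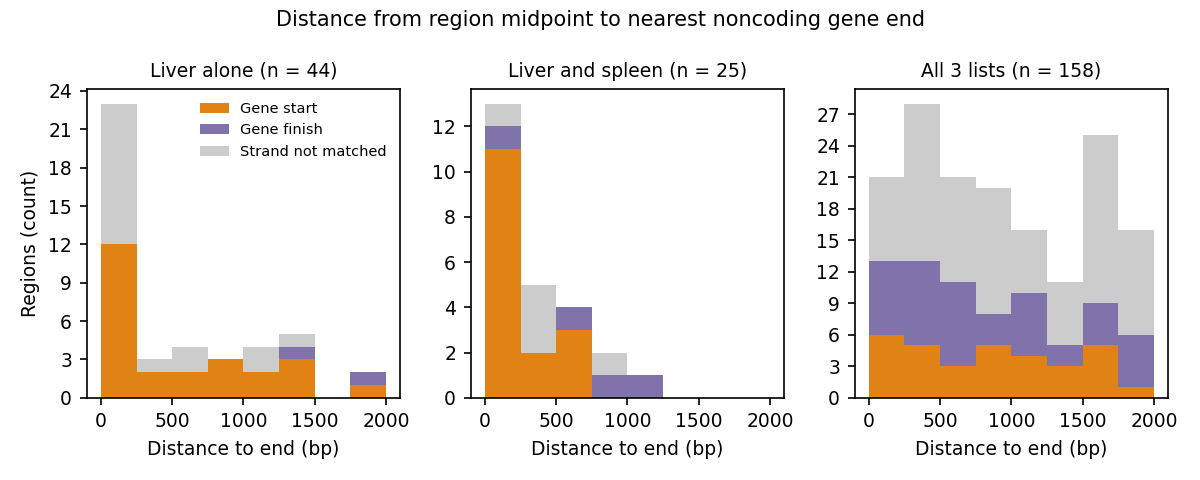
Number of regions by distance (bp, bins of 250 bp) from the region midpoint to the nearest noncoding gene end, for regions in liver alone, in liver and spleen, and in all 3 lists. Orange marks the gene start, purple the gene finish and grey a gene without a matched strand. The first bin holds 23 of 44, 13 of 25 and 21 of 158 regions. The vertical scales differ.

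Overlap with the promoter windows also set regions in liver alone and in liver and spleen apart from those in all 3 lists. Of the regions in liver alone, 20 of 44 overlapped a RefSeq promoter window by at least 1 bp (45.5%, 30.4 to 61.2%), and of those in liver and spleen 13 of 25 (52.0%, 31.3 to 72.2%). In all 3 lists 11 of 158 did (6.96%, 3.53 to 12.1%), and 0 of the 19 absent from liver (up to 17.6%). In the rest of the series the shares were 63.9% of 1211 regions in liver alone, 46.5% of 413 in liver and spleen and 9.54% of 1772 in all 3 lists, so the contrast was not limited to noncoding ends.

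Some of these windows belong to coding genes. The rule used the outermost ends of each coding gene, and 13 regions overlapped a promoter window of a coding transcript that starts inside its gene, among them Kifap3, Gabpb1, Gse1 and Cd47, 10 of them in liver alone. These names were chosen after their values were seen. Without the 13 regions, 20 of the 34 left in liver alone were within 250 bp of a noncoding end (58.8%), and 21 of 157 in all 3 lists (13.4%).

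**Figure D3:**
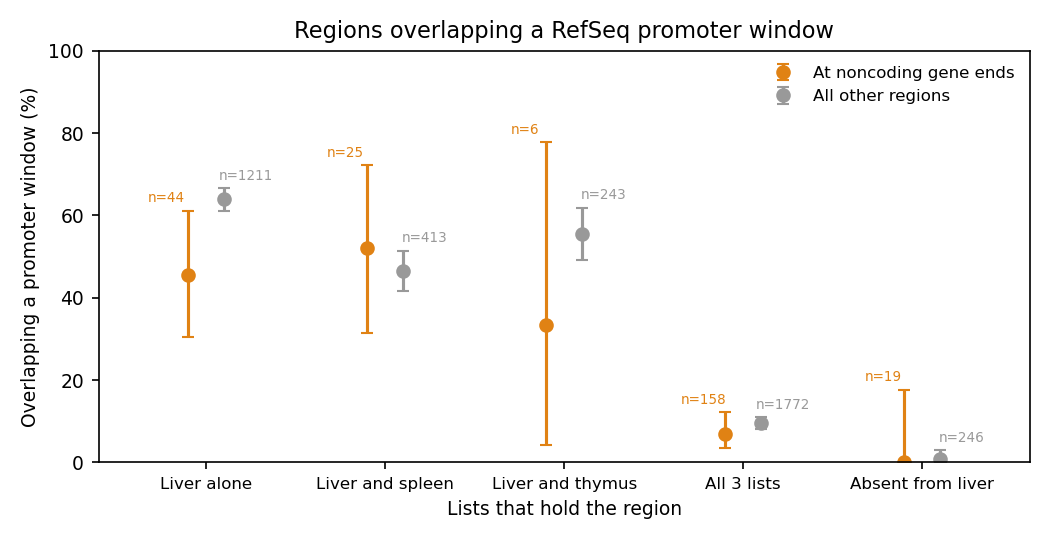
Share of regions (%) that overlap a RefSeq promoter window by at least 1 bp, by the lists that hold them, for regions at noncoding gene ends (orange) and all other regions (grey). Points are shares, bars exact 95% intervals, and n is the number of regions. Regions in liver alone reach 45.5% and 63.9%, those in all 3 lists 6.96% and 9.54%.

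Score ranks were read as percentiles within each list, 100 being the best-scored, because the scale of the authors' score is not given. The set did not stand at the top of any list. Its median percentile was 50.3 in the liver, 57.7 in the spleen and 58.3 in the thymus. For the 158 regions in all 3 lists the medians were 53.7, 63.6 and 60.0, beside 52.3, 58.0 and 55.9 for all 1930 regions in all 3 lists. Regions in liver alone had a median of 50.3 in liver.

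The best-ranked lncRNA region in all 3 lists was at Gm51651. Its element, shown above, had 0 mismatches, as did that of D730003K21Rik, whose region ranked lower in each list. The Gm51651 region scored 47.6 in the liver, 32.1 in the spleen and 29.5 in the thymus, at percentiles of 99.9, 97.3 and 99.4. Its midpoint was 398.5 bp from the end of the gene and 40241.5 bp from the nearest coding end, that of Ier5, an immediate early response gene. It ranked near the top of every list.

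Trp53cor1, also called lincRNA-p21, is a p53-induced lncRNA gene upstream of Cdkn1a, the gene of the cell cycle inhibitor p21. Its region (chr17:29078701-29079450) was 50.5 bp from the gene end and 11903.5 bp from an end of Cdkn1a. The scores were 42.9 in the liver, 29.9 in the spleen and 27.0 in the thymus, at percentiles of 99.5, 91.8 and 93.4. It ranked high in all 3 organs.

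The region at 2900052L18Rik scored 43.8, 30.8 and 29.4 in liver, spleen and thymus, at percentiles of 99.6, 94.0 and 98.9. Gm31005 stood at percentiles of 97.2, 95.4 and 92.8, and Gm35978, whose region is 3153.5 bp from an end of Notch1, at 94.4, 89.0 and 99.4. Notch1 encodes a receptor that directs T cell development. Of these lncRNA genes, Gm35978 was the one with its highest rank in thymus.

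The other 7 of the 12 best-ranked lncRNA regions were at Gm46115, Gm34289, Gm39143, Gm46170, Gm34657, Gm33905 and Gm34863. Ranks differed most between organs at Gm34863, with percentiles of 98.1 in the liver, 94.5 in the spleen and 71.7 in the thymus, and at Gm33905, with 91.8, 76.9 and 97.1. Gm34657, whose region overlapped its promoter window, stood at 98.7, 95.9 and 78.9. For these 3 genes, then, thymus was either the lowest or the highest of the organs.

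Pvt1 is an lncRNA gene next to Myc that also hosts miRNAs. Its region (chr15:62039101-62039550) was 1339.5 bp from an end of Pvt1 and 48964.5 bp from an end of Myc. It scored 23.9 in the liver, 32.5 in the spleen and 29.4 in the thymus, at percentiles of 64.4, 97.8 and 98.9. Liver thus ranked it well below both lymphoid organs.

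**Figure D4:**
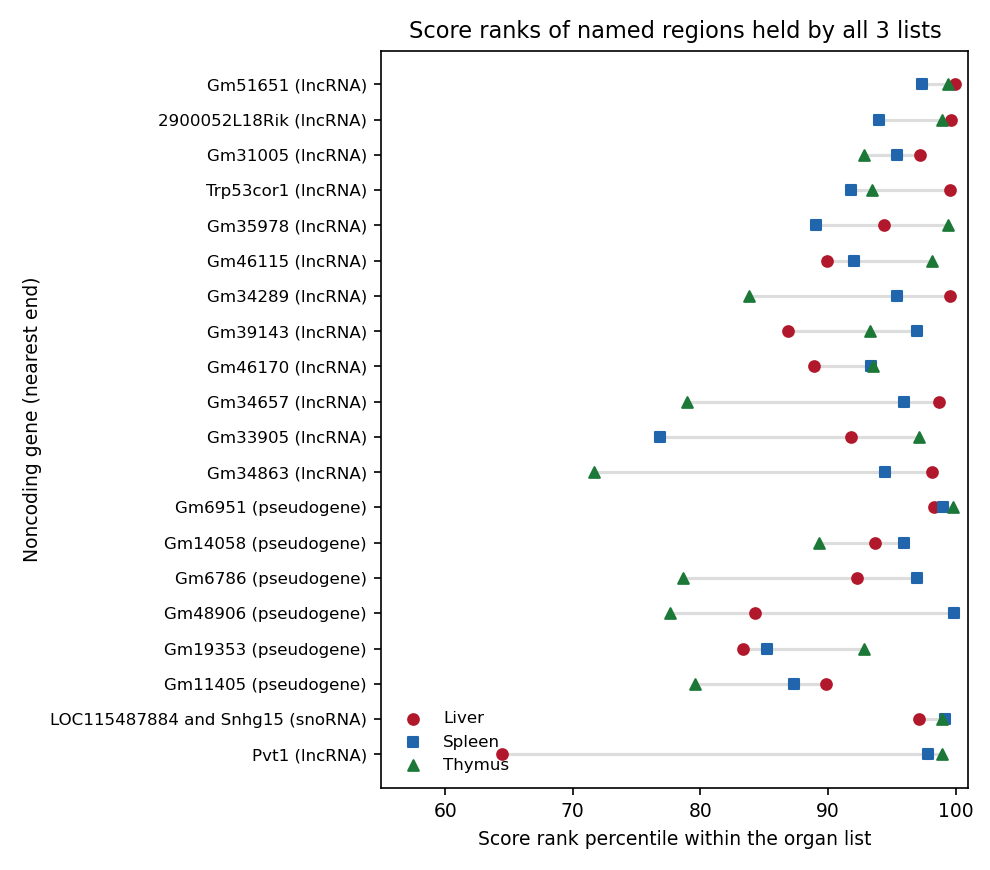
Score rank percentile within the liver (red circles), spleen (blue squares) and thymus (green triangles) lists for regions in all 3 lists: the 12 best-ranked at lncRNA genes, 6 at pseudogenes, and those at Pvt1 and at LOC115487884 and Snhg15. Each row is a region, named by its nearest noncoding gene, and grey lines join the organs. The axis starts at 55. Of the regions drawn, Pvt1 has the widest spread, from 64.4 in liver to 98.9 in thymus.

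Among lncRNA regions in liver alone, the best ranked was at Gm40561, with a score of 33.9 and a percentile of 96.7, at 42.5 bp from the gene end and over the promoter window shown above. Lower down were 1700016A09Rik, inside Gse1, and Gm40564, inside Atp2c1, both at 80.4. Gm51663, inside Kifap3, stood at 75 and A630066F11Rik, 4.5 bp from its end, at 74.8. Of the 6 best-ranked regions of this kind, 5 of which are named here, 2 overlapped a noncoding promoter window, 3 a coding one and 1 neither.

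Pseudogene regions were led by Gm6951, which scored 37.3 in the liver, 34.0 in the spleen and 30.7 in the thymus, at percentiles of 98.3, 99.0 and 99.8. The region lay inside the pseudogene, 1753.5 bp from its nearest end. Gm14058 followed at 93.7, 95.9 and 89.3, at 1952.5 bp. Gm6786 stood at 92.3, 96.9 and 78.6, Gm48906 at 84.3, 99.9 and 77.6, Gm19353 at 83.3, 85.2 and 92.8, and Gm11405 at 89.8, 87.3 and 79.5. All 6 were in all 3 lists. The closest to an end of its pseudogene was that of Gm6786, at 288.5 bp. No source used here gives the authors' treatment of reads that match several copies, so values at pseudogenes and repeated RNA genes are uncertain.

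At the 2 miRNA genes with a region in all 3 lists, Mir3110 and Mir3067, the mature RNAs are printed as RefSeq gives them, with the seed (bases 2 to 8) in capitals.
mmu-miR-3110-5p: uUCUGCCUccccugaaggcuc
mmu-miR-3110-3p: gCACUCCAucggaggcagacac
mmu-miR-3067-5p: aGUUCUCAggcccgcuguggugu
mmu-miR-3067-3p: cCAAGCGGcugcccugggagagg
No pair of these RNAs shares a seed. The region at Mir3110, on the X chromosome inside Tmem255a and 1415.5 bp from the miRNA gene, stood at even percentiles of 73.1 in the liver, 76.6 in the spleen and 72.0 in the thymus. The region at Mir3067, inside Smoc1 and 1841.5 bp from the miRNA gene, ranked high in liver, at 96.0, against 27.2 in spleen and 23.8 in thymus. Mir1893 had a region in thymus alone at percentile 2.56. Mir7649, beside Gm15987, and Mir7687, beside 1700016A09Rik, were in reach of regions nearer to an lncRNA gene.

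At tRNA genes all 8 regions were in the liver list, 3 in spleen and 3 in thymus, and 4 were in liver alone. Over all distinct regions these shares were 93.6%, 62.9%, 58.1% and 30.3%. Each lay inside the wide interval of the tRNA share: 63.1 to 100% for liver, 8.52 to 75.5% for spleen and for thymus, and 15.7 to 84.3% for liver alone. The highest was at n-TRccg1, an arginine tRNA gene, with percentile 92.5 in liver and no entry elsewhere. A cluster on chromosome 3 held a pair of regions: the one at n-TYgta1 was in liver alone at 79.6, and the one at n-TYgta2 was in liver at 0.478 and in thymus at 47.0. The region at n-TAagc8, whose nearest coding end was that of Sesn2 at 5219.5 bp, went the other way. It stood at 63.0 in the liver, 75.2 in the spleen and 89.1 in the thymus. So did the region at n-TStga1, in reach of 5 tRNA genes, with 24.8, 51.2 and 69.7. The region at n-TPtgg8 was in liver at 48.4 and in spleen at 10.2, and that at n-THgtg4 in liver alone at 24.3.

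Small nuclear and nucleolar RNA genes gave 6 regions. The strongest, 2350 bp wide (chr11:6526501-6528850), was nearest to the nucleolar RNA gene LOC115487884 and in reach of Snhg15, and stood at 97.1 in the liver, 99.2 in the spleen and 98.9 in the thymus. LOC115490479 stood at 59.6, 66.1 and 60.2, and Gm23080 at 15.7, 39.6 and 34.3. Gm23205 was in liver alone at 68.8. Gm26479 and Gm23731 were absent from liver, with spleen percentiles of 54.4 and 50.1 and thymus percentiles of 69.2 and 23.1.

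Regions in spleen and thymus but not in liver numbered 13. They were among the 19 regions absent from liver (7.54%), a class that made up 6.41% of all distinct regions. The share in spleen and thymus only was not counted over all regions, so the 13 cannot be called many or few. Gm5441 ranked highest, at 62.0 in spleen and 95.3 in thymus, followed by Gm36124 at 75.9 and 53. Gm33981 stood at 61.0 and 60.3, and Gm46405 at 25.4 and 75.9. Tcrb, the locus of the T cell receptor beta chain, had a region 54.5 bp from its end at 46.9 in spleen and 55 in thymus. On another chromosome, 1 region in thymus alone, chosen for mention after its value was seen, lay 829.5 bp from Trav13-5, a variable segment of the T cell receptor alpha locus, at percentile 81.2. Absence from liver did not extend to the variable segment pseudogene Igkv13-89-1. Its region was in all 3 lists, at 11.8 in the liver, 49.9 in the spleen and 34.7 in the thymus.

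Lists of known noncoding genes gave a handful of such regions. Over all 28056 noncoding genes, 277 had a region of the set (0.987%). Of 30 matched noncoding genes commonly linked to p53, 3 had one (10%, 2.11 to 26.5%): Trp53cor1 and Pvt1 in all 3 lists, and Malat1, an abundant nuclear lncRNA gene, in liver alone at percentile 52.1. Mir34a, Mir34b and Mir34c, the miRNA genes best known as p53 targets, had none at their ends. Of 22 host genes of small nucleolar RNAs, Snhg15 and Snhg3 had one (9.09%, 1.12 to 29.2%). The Snhg3 region was in liver alone at 52.4, at 10.5 bp from the gene end. Of 27 nuclear and imprinted noncoding genes, Malat1 and Ftx did (7.41%, 0.910 to 24.3%). Ftx, an X-inactivation lncRNA gene, had a 50 bp region in liver alone at 56.6. Of 9 liver and 20 lymphoid noncoding genes, 0 had one.

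Several genes carried more than one region. At 1700016A09Rik the 3 regions held different lists: one was in all 3 at 86.1 in the liver, 34.2 in the spleen and 21.6 in the thymus, one in liver alone at 80.4, and one in liver and thymus at 40.2 and 60.5. At A630026N12Rik one was in all 3 lists at 67.9, 45.5 and 26.4, and the other, over a promoter window of Gabpb1, in liver alone at 43.6. Both regions at Gm36171 and both at Gm51974 were in all 3 lists. At Gm46196 one was in all 3 lists and the other in spleen and thymus. Neighbouring regions could thus differ in the lists that held them.

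For the regions in all 3 lists, ranks in spleen and thymus were closer to each other than either was to liver. Spearman's rho across the 158 regions was 0.57 for spleen and thymus, 0.34 for spleen and liver, and 0.25 between thymus and liver. Across all 1930 regions in all 3 lists the values were 0.58, 0.26 and 0.20. These are descriptions across regions that share 1 list per organ, not across animals. The median difference in percentile was 15.3 for spleen and thymus and 23.9 for liver and thymus.

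**Figure D5:**
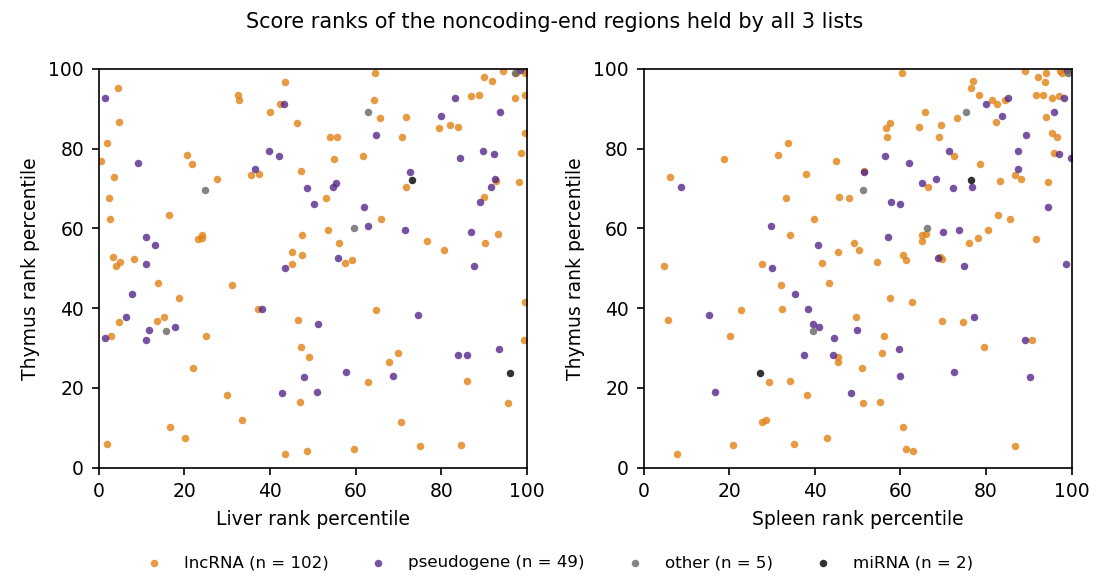
Score rank percentile in thymus against that in liver (left) and in spleen (right) for the 158 noncoding-end regions in all 3 lists, coloured by kind of gene. Each point is a region. Points spread over most of the left panel (rho 0.25) and lie nearer to the diagonal in the right panel (rho 0.57).

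Near the 2 kb limit, the last regions inside were at Gm30411 (1995.5 bp, percentiles of 16.6, 60.5 and 10.2 in liver, spleen and thymus), Gm51974 (1991.5 bp) and Gm35429 (1986.5 bp). The first outside were at Gm51914 (2016.5 bp, percentiles of 7.04, 37.8 and 6.17), Gm35343 (2017.5 bp) and Gm13485 (2034.5 bp). All of these were in all 3 lists. Between 1900 and 2000 bp there were 6 regions of the set, and between 2000 and 2100 bp 12 regions outside it.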

How the data were processed

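The p53 ChIP-seq regions of 3 organs of wild-type mice came from 1 deposited list per organ. The authors deposited for each region a score whose scale is not given. Per the submitters' processing notes, the build was mm10. No source used here gives the caller, the aligner or any pooling of libraries. Region bounds lie on steps of 50 bp, and regions with identical bounds in several lists were joined. Each score became a percentile of rank inside its list, and tied scores took their mean rank.

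Gene ends, classes and promoter windows came from RefSeq (GRCm38.p6, 28056 noncoding and 21887 protein-coding genes on the chromosomes used). Strand was matched through the promoter and miRNA tables. A region near several noncoding genes took the kind of the nearest. The p53 response element was searched by its consensus, on both strands.

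No test was run, since each organ has 1 list; the lists of other genes were read as counts. Named genes were all small RNA regions up to 15, the 12 best-ranked lncRNA regions of all 3 lists, the 6 best in liver alone, 6 pseudogene regions, up to 6 in spleen and thymus only, members of 5 gene lists, and genes with several regions. A region named by this rule is not reported here. The set and the lists were chosen with earlier results of these data known. Steps were tested on simulated regions. Alternatives were windows of 1 and 5 kb, distance from the region edge, leaving out provisional genes or regions inside coding genes, equal list lengths, the upper 50% of each list, every kind in reach, and ranks among shared regions; leaving out regions over coding promoters was added after seeing the data. Python 3.11.15, pandas 2.3.3, NumPy 2.4.6, SciPy 1.17.1 and Matplotlib were used.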

Additional observations from a re-analysis of the deposited data

How the results depend on the processing

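The number of regions was 401 with a 5 kb window and 39 without provisional gene models. Windows of 1 and 5 kb were applied to noncoding and coding ends alike, so the 1 kb run also took in regions nearer to coding ends. The share in the liver list fell to 64.5% with equal list lengths and 61.9% in the upper 50% of each list, where 66.8% and 69.5% of all regions were in it. The spleen share was 67.9% with a 1 kb window, 84.0% with 5 kb, 56.4% without provisional models (below the 62.9% of all regions) and 63.0% in the upper 50% (46.8% of all regions). The thymus share was 59.7% with 1 kb and 61.5% without provisional models, near the 58.1% of all regions. It was 79.6% with 5 kb, 77.8% without regions inside coding genes and 78.4% with equal lengths. In the upper 50% it was 61.4% (43.2% of all regions). The share in all 3 lists was 48.5% with 1 kb and 48.7% without provisional models, near the 46.7% of all regions. It was 45.9% with equal lengths and 29.6% in the upper 50%, where 32.6% and 19.2% of all regions were in all 3. The share in liver alone was 25.5% with 1 kb, 11.5% with 5 kb, 33.3% without provisional models and 23.3% in the upper 50%, where it was 41.1% of all regions. Shorter lists share fewer regions by construction; otherwise the cause was not tested. The other 26 of 48 values of these 6 results stayed within their interval or within 1.5 times. Among results by kind and median ranks, 24 of 109 values moved, and pseudogene regions kept a higher share in all 3 lists than lncRNA regions under each alternative run. No paired analysis was possible because each organ has 1 list and no values per library. Depth is unknown, and rank percentiles do not carry signal size across organs.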

Other observations

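A few shared regions held very unequal ranks between organs; these were picked after their values were seen. The region at B230206L02Rik (lncRNA) stood at percentiles of 99.6 in the liver, 62.7 in the spleen and 41.5 in the thymus, with scores of 43.8, 22.8 and 14.6. At 1700054M17Rik, inside Gpr176, the percentiles were 99.4, 90.8 and 32.1. At Gm32823 they ran the opposite way, at 32.5, 78.3 and 93.5. The region at D730003K21Rik, whose promoter holds an element with 0 mismatches, stood at 76.6, 65.0 and 57.0, and that at Gm15987, with 1 mismatch, at 3.94 in liver and 69.5 in spleen.

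Values at 2 more repeated genes, also picked after they were seen, were as follows. Rn18s-rs5, a ribosomal RNA pseudogene, had a region in liver alone at percentile 2.88, and Rn7s2, a gene of the RNA of the signal recognition particle, one in liver alone at 21.8.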
